A study of Mus musculus with 16 samples.

Results

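The guanylate-binding proteins were examined in primary mammary tumors of mice with and without a gene trap in *Resf1*. The members are the 10 genes *Gbp2* to *Gbp11*, and all 10 were among the 23609 genes of the deposited table. They were chosen by the values of the same contrast: *Gbp2* and *Gbp10* were selected on the distance between wildtype and gene trap tumors, and the other 8 were added because they belong to the same family. The differences between genotypes are therefore given as a description, without a test. All tumors came from animals that carry the MMTV-PyMT transgene, in which a mammary tumor virus promoter drives the polyoma middle T antigen in mammary epithelium. The wildtype group has the transgene alone, and the gene trap group, labelled Resf1 +/-, also carries 1 allele with a lentiviral EGFP/Cre insertion. The insertion lies in the first exon of *Resf1*, and the mice are offspring of a cross between the C57BL/6 gene trap line and FVB MMTV-PyMT mice. The 2 groups are littermates, the animals were untreated, and the labels give no age. Values from 5 wildtype and 5 gene trap tumors were used, and a shared replicate number does not mean a shared animal.

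Guanylate-binding proteins are large GTPases of the dynamin superfamily that interferons, above all interferon gamma, induce strongly in immune and non-immune cells. They assemble on pathogen-containing vacuoles and on bacteria in the cytosol, help to break open the vacuole and promote inflammasome activation and pyroptosis. Mice carry one cluster of these genes on chromosome 3 and another on chromosome 5, and in tumors their transcripts are often read as a sign of interferon exposure. In bulk tumor RNA, fewer cells of a type and less RNA per cell cannot be told apart.

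In the GENCODE order of genes, *Gbp5*, *Gbp7*, *Gbp3* and *Gbp2* lie on chromosome 3 on the plus strand, and *Gbp8*, *Gbp9*, *Gbp4*, *Gbp10*, *Gbp6* and *Gbp11* lie on chromosome 5 on the minus strand. Interferons act on promoters through the interferon-stimulated response element (ISRE) and the gamma-activated site (GAS). RefSeq promoter windows of 300 bases, from 250 before the start site to 50 after it (build GRCm38.p6), were matched for 4 members, *Gbp2*, *Gbp3*, *Gbp5* and *Gbp7*. No window was matched for *Gbp4*, *Gbp6*, *Gbp8*, *Gbp9*, *Gbp10* or *Gbp11*. The windows are shown because the members share a route of induction, with each match to an ISRE (GAAANNGAAA, on either strand) or a GAS (TTCNNNGAA, which reads the same on both strands) in capitals.
Gbp5 promoter, chr3:142496684-142496983, plus strand: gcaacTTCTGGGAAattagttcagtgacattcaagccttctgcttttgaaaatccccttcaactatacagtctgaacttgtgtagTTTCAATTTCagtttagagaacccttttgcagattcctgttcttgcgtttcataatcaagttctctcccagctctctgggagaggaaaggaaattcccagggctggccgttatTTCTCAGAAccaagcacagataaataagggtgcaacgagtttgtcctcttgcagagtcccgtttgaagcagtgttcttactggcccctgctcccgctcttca
Gbp7 promoter, chr3:142530086-142530385, plus strand: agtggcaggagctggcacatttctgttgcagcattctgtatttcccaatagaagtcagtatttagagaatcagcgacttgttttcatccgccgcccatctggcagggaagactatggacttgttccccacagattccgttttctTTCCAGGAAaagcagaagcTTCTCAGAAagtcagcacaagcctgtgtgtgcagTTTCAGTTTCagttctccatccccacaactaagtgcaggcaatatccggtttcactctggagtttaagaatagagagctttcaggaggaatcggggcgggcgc
Gbp3 promoter, chr3:142559794-142560093, plus strand: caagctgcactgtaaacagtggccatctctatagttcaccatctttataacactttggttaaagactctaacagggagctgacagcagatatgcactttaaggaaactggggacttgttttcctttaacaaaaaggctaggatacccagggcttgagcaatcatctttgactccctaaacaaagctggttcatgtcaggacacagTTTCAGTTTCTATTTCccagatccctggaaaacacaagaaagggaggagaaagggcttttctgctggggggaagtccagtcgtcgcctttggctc
Gbp2 promoter, chr3:142620413-142620712, plus strand: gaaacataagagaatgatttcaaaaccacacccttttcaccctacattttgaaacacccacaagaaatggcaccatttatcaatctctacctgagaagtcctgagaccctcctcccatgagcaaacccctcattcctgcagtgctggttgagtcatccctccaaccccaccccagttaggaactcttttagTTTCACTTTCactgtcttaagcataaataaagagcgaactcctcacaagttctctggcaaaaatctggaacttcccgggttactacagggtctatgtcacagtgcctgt
The 4 windows shown each hold an ISRE, against 3.44% of the 32851 promoter windows in the RefSeq table. The ISRE begins 59 bases before the start site in *Gbp2*, 53 in *Gbp7* and 165 in *Gbp5*, and *Gbp3* holds a pair that overlap and begin 45 and 39 bases before it. A second window of *Gbp3*, for another start site, holds neither motif. *Gbp7* has GAS matches 106 and 87 bases before the start site and *Gbp5* has them at 245 and 52, whereas *Gbp2* and *Gbp3* have none. A GAS was found in 8.3% of all windows and both motifs in 0.454%. These matches describe the sequence and are not evidence of binding in these tumors.

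The authors deposited values normalized between tumors, so the depth of each tumor is unknown, and 21034 genes with a mean of at least 10 were fitted with limma on log2(value + 1). For low values the added 1 makes a difference look smaller than it is. *Resf1*, the gene that carries the trap, lay between 3517 and 4487 in wildtype and between 3066 and 4029 in gene trap tumors, so the groups overlapped. Its mean was 4099 ± 400 (SD, n = 5) in wildtype and 3516 ± 361 (SD, n = 5) in gene trap tumors, 14.2% lower. The log2 fold change of *Resf1* was -0.22 (SE 0.09). The value covers the whole gene, and by the paper almost all of its coding sequence lies in an exon beyond the insertion. No gene had an adjusted p under 0.05 (0 of 21034, 0%), while 278 genes (1.32%) were higher and 201 (0.956%) were lower in gene trap tumors at an unadjusted p under 0.05. Gene trap replicate 2 differed from the remaining 9 in the table as a whole: its position on the first principal component, which held 31.1% of the variance, was 91.8, and the others lay between -18.6 and -4.79. This tumor had the lowest value of 21.8% of all tested genes and the highest of 22.4%, so the differences of the members are also given without it. The luminal epithelial markers, which check the labelled tissue, were all present, with summed values from 73499 to 97764 in wildtype and from 77076 to 100789 in gene trap tumors.

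The mean log2 value of all 10 members was lower in gene trap tumors, and the mean of the deposited values was lower for all 10 as well. The log2 fold change lay between -0.94 for *Gbp10* and -0.10 for *Gbp7*, with a median of -0.40. Over all tested genes 48.6% had a lower mean in gene trap tumors, and the median log2 fold change was 0.00. Because the members vary together among tumors and were proposed from this contrast, the count of 10 is not 10 separate observations. All members remained lower without gene trap replicate 2, with a median of -0.32 and a range from -0.77 to -0.04.

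*Gbp2* (ENSMUSG00000028270), an isoprenylated member that is recruited to the *Toxoplasma* vacuole, had values of 1237, 1478, 1709, 1464 and 1336 in wildtype replicates 1 to 5. In gene trap replicates 1 to 5 the values were 1334, 997, 1029, 1139 and 1147. Only gene trap replicate 1 reached into the wildtype range, and 4 gene trap tumors lay below the lowest wildtype tumor. The mean was 1445 ± 178 (SD, n = 5) in wildtype and 1129 ± 132 (SD, n = 5) in gene trap tumors, 21.8% lower. The log2 fold change was -0.35 (SE 0.10), and -0.31 without gene trap replicate 2. By the size of the difference relative to its standard error, *Gbp2* ranked 12th and *Gbp10* ranked 13th of the 21034 genes, which are the values that selected them.

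*Gbp10* (ENSMUSG00000105096), a chromosome 5 member, had values of 81.1, 84.0, 155, 86.0 and 90.5 in wildtype replicates 1 to 5. Its values in gene trap replicates 1 to 5 were 79.7, 29.97, 36.9, 55.1 and 60.6. It was the only member whose groups did not overlap, and the gap between the lowest wildtype tumor (81.1) and the highest gene trap tumor (79.7) was small. Across all tested genes, 55 (0.261%) had every gene trap tumor below every wildtype tumor. When tumors were scaled to equal totals, 0 of the 10 members had groups that did not overlap. The mean was 99.2 ± 31.2 (SD, n = 5) in wildtype and 52.5 ± 19.8 (SD, n = 5) in gene trap tumors, 47.1% lower. The log2 fold change was -0.94 (SE 0.28), -0.77 without gene trap replicate 2 and also -0.77 without wildtype replicate 3, the tumor with the value of 155.

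*Gbp6* (ENSMUSG00000104713), another chromosome 5 member that can be recruited to parasite vacuoles, had wildtype values of 199, 201.5, 288, 239 and 278. The gene trap values were 185, 102, 144, 201.5 and 207. The 3 lowest gene trap tumors lay below all wildtype tumors, and replicates 4 and 5 overlapped them. Its mean was 30.4% lower in gene trap tumors, with a log2 fold change of -0.55 (SE 0.20) and of -0.38 without gene trap replicate 2. The reads of *Gbp6* and *Gbp10* are hard to separate. Of the 100-base windows of the *Gbp10* transcript, 57.0% occur without mismatch in the transcript of another family gene, mostly *Gbp6*, and 46.7% of the windows of *Gbp6* do so. For the other 8 members the share was at most 5.13%. With shorter windows of 50 bases it was 21.2% for *Gbp8*, 19.2% for *Gbp11*, 12.8% for *Gbp4* and at most 9.56% for the remaining 5, against 73.9% for *Gbp10* and 70.3% for *Gbp6*. How reads with several matches were assigned is not given in the sources used here, so the division between *Gbp6* and *Gbp10* is uncertain.

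*Gbp11* (ENSMUSG00000092021), annotated as a polymorphic pseudogene, had the lowest values of the family. They were 9.33, 10.6, 22.6, 14.0 and 11.8 in wildtype tumors, and 11, 2.48, 7.77, 9.11 and 7.83 in gene trap tumors. The groups overlapped through gene trap replicate 1 alone. The log2 fold change was -0.81 (SE 0.36) and -0.51 without gene trap replicate 2. With a mean close to the minimum of 10, *Gbp11* no longer entered the fit when wildtype replicate 3 was left out.

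*Gbp3* (ENSMUSG00000028268), a chromosome 3 member that takes part in defence against vacuolar pathogens, had wildtype values of 713, 1003, 998, 978 and 1064. The gene trap values were 801, 434, 498, 999 and 689. The groups overlapped from 713 to 999, with wildtype replicate 1 well below the other wildtype tumors and gene trap replicate 4 well inside the wildtype range. The mean was 951 ± 137 (SD, n = 5) in wildtype and 684 ± 229 (SD, n = 5) in gene trap tumors, with a log2 fold change of -0.53 (SE 0.21) that became -0.38 without gene trap replicate 2.

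*Gbp7* (ENSMUSG00000040253), which helps to assemble the phagocyte NADPH oxidase on phagosomes, had the smallest difference. Its wildtype values were 1046, 1446, 1353, 1236 and 1480, and its gene trap values were 1497, 1020, 1125, 1404 and 1082. The highest tumor of all was gene trap replicate 1, and the groups overlapped over almost their whole range. The mean was 6.59% lower in gene trap tumors, and the log2 fold change of -0.10 (SE 0.13) was smaller than its standard error. It was -0.04 without gene trap replicate 2.

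The remaining 4 members also overlapped between genotypes. *Gbp5*, a prenylated member that promotes NLRP3 inflammasome assembly, lay between 41.4 and 84.1 in wildtype (median 61.5) and between 27.3 and 75.2 in gene trap tumors (median 45.5). *Gbp9*, a vacuole-associated member, lay between 541 and 1017 (median 880) and between 363 and 904 (median 756). *Gbp4* and *Gbp8*, whose individual roles are less well described, had medians of 110 and 50.9 in wildtype and of 97.9 and 30.5 in gene trap tumors. *Gbp8*, *Gbp9* and *Gbp4* overlap one another in the annotation. Their log2 fold changes were -0.36 (SE 0.29) for *Gbp5*, -0.28 (SE 0.24) for *Gbp9*, -0.26 (SE 0.27) for *Gbp4* and -0.44 (SE 0.28) for *Gbp8*. Without gene trap replicate 2 they came to -0.17, -0.06, -0.08 and -0.33, so most of the difference in *Gbp4* and *Gbp9* was lost without this tumor.

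**Figure D1:**
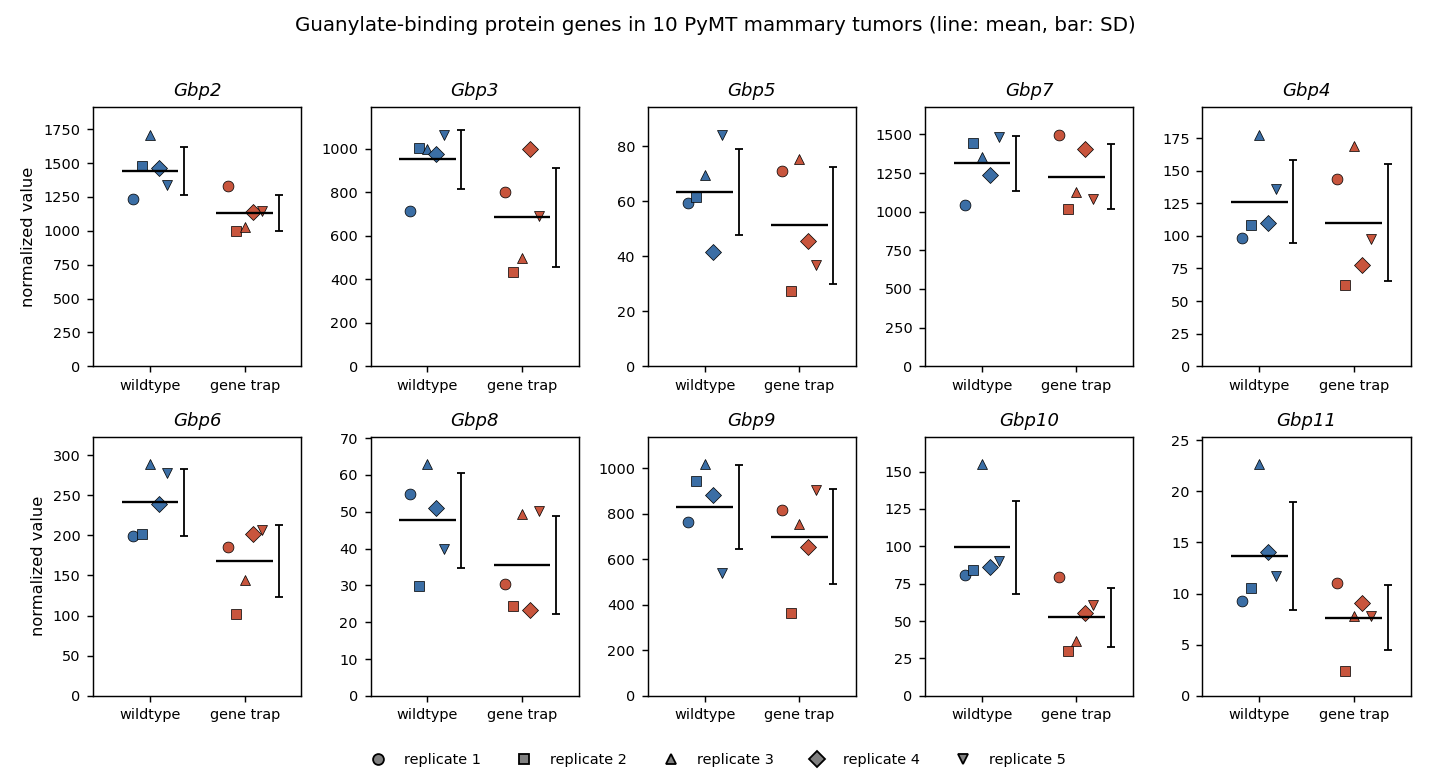
Normalized value of each of the 10 members in every tumor, on a linear axis that starts at 0. Blue points are wildtype and red points gene trap tumors, the symbol gives the replicate number, the line is the mean and the bar the SD (n = 5); only *Gbp10* has groups that do not overlap, and wildtype replicate 3 (highest for 7 members) and gene trap replicate 2 (lowest for 9) recur at the extremes.

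**Figure D2:**
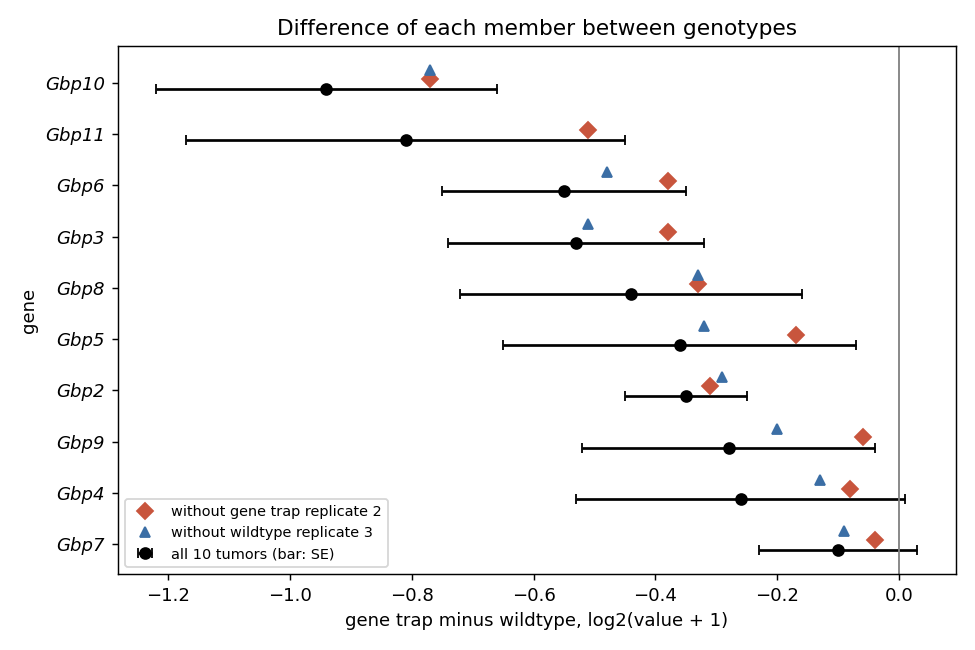
Gene trap minus wildtype difference of the mean log2(value + 1) of each member, with its standard error for all 10 tumors (black). Red diamonds leave out gene trap replicate 2 and blue triangles leave out wildtype replicate 3 (*Gbp11* was then not fitted); every point lies below 0, from -0.94 to -0.10 with all tumors and from -0.77 to -0.04 without gene trap replicate 2.

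A pair of tumors marked the ends of the family's range. Gene trap replicate 2 had the lowest value of all 10 tumors for 9 of the 10 members, and gene trap replicate 4 for *Gbp8*. Wildtype replicate 3 had the highest value for 7 members, while it had the highest value of 6.51% of all tested genes. The highest value of *Gbp3* and *Gbp5* was that of wildtype replicate 5, and that of *Gbp7* was gene trap replicate 1. Gene trap replicate 1 was above the mean of its own group for all members but *Gbp8*, and above the lowest wildtype tumor for all but *Gbp10* and *Gbp6*.

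Levels differ widely between the genes. Values were divided by the length of the longest annotated coding transcript, and for *Gbp11* its pseudogene transcripts were also considered. Per kilobase, *Gbp2* was the most abundant in wildtype tumors (574 ± 70.6, SD, n = 5), followed by *Gbp3* (355 ± 51.0), *Gbp7* (234 ± 31.4), *Gbp9* (189 ± 42.4) and *Gbp6* (92.6 ± 16.0). The order depends on these lengths, since before division the wildtype mean of *Gbp7* (1312) was above that of *Gbp3* (951). *Gbp10* (28.1 ± 8.85), *Gbp4* (27.8 ± 7.02), *Gbp5* (20.7 ± 5.09) and *Gbp8* (19.4 ± 5.28) were close to one another, and *Gbp11* (5.08 ± 1.97) was lowest. The wildtype ranges overlapped between *Gbp7* and *Gbp9*, between *Gbp10* and *Gbp4*, between *Gbp4* and *Gbp5* and between *Gbp5* and *Gbp8*. The other neighbours in this order did not overlap, though the division of reads between *Gbp6* and *Gbp10* is uncertain. In gene trap tumors the order changed in the low group, where *Gbp10* (14.9) lay below *Gbp4* (24.3) and *Gbp5* (16.8), and the other places were the same. *Gbp2*, *Gbp3*, *Gbp7* and *Gbp9* together gave 88.5% of the summed family value in wildtype and 89.9% in gene trap tumors. That sum, not divided by length, was 5128 ± 578 (SD, n = 5) in wildtype and 4163 ± 733 (SD, n = 5) in gene trap tumors, and it overlapped between 4262 and 4970.

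Whether the members vary together was also described inside the genotypes. After each group mean was subtracted from the log2 values, the Pearson correlation of the 45 pairs of members over the 10 tumors had a median of 0.55 and a range from -0.46 to 0.88, and the Spearman correlation had a median of 0.49. The correlation was above 0 for 43 of the 45 pairs. Without gene trap replicate 2 the median was 0.35 and 32 of the 45 pairs were above 0. All points share the same 10 libraries and their scaling, and no p is given.

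The 2 genes that led to the family, *Gbp2* on chromosome 3 and *Gbp10* on chromosome 5, had the highest correlation of all pairs (r = 0.88, rho = 0.81), and it was 0.87 without gene trap replicate 2. *Gbp3* and *Gbp7* followed each other closely on chromosome 3 (r = 0.82, rho = 0.94, and r = 0.78 without gene trap replicate 2). *Gbp5* was most like *Gbp4*, on the other chromosome (r = 0.82, rho = 0.78, and r = 0.73 without that tumor). On its own chromosome *Gbp5* had r = 0.54 with *Gbp7*, the member next to it (0.39 without that tumor). With *Gbp2* and *Gbp3*, which lie farther along, r was 0.25 for both. *Gbp8* had negative values against *Gbp7* (r = -0.46, rho = -0.47, and r = -0.74 without that tumor) and *Gbp3* (r = -0.28, rho = -0.39, and r = -0.69). *Gbp6* and *Gbp10* (r = 0.82, rho = 0.83), whose transcripts share sequence, were also alike, and the part of shared reads in this was not tested. Pairs within chromosome 3 had a median of 0.59 (6 pairs), pairs within chromosome 5 of 0.55 (15 pairs) and pairs across chromosomes of 0.52 (24 pairs). Without gene trap replicate 2 these medians were 0.46, 0.35 and 0.24.

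**Figure D3:**
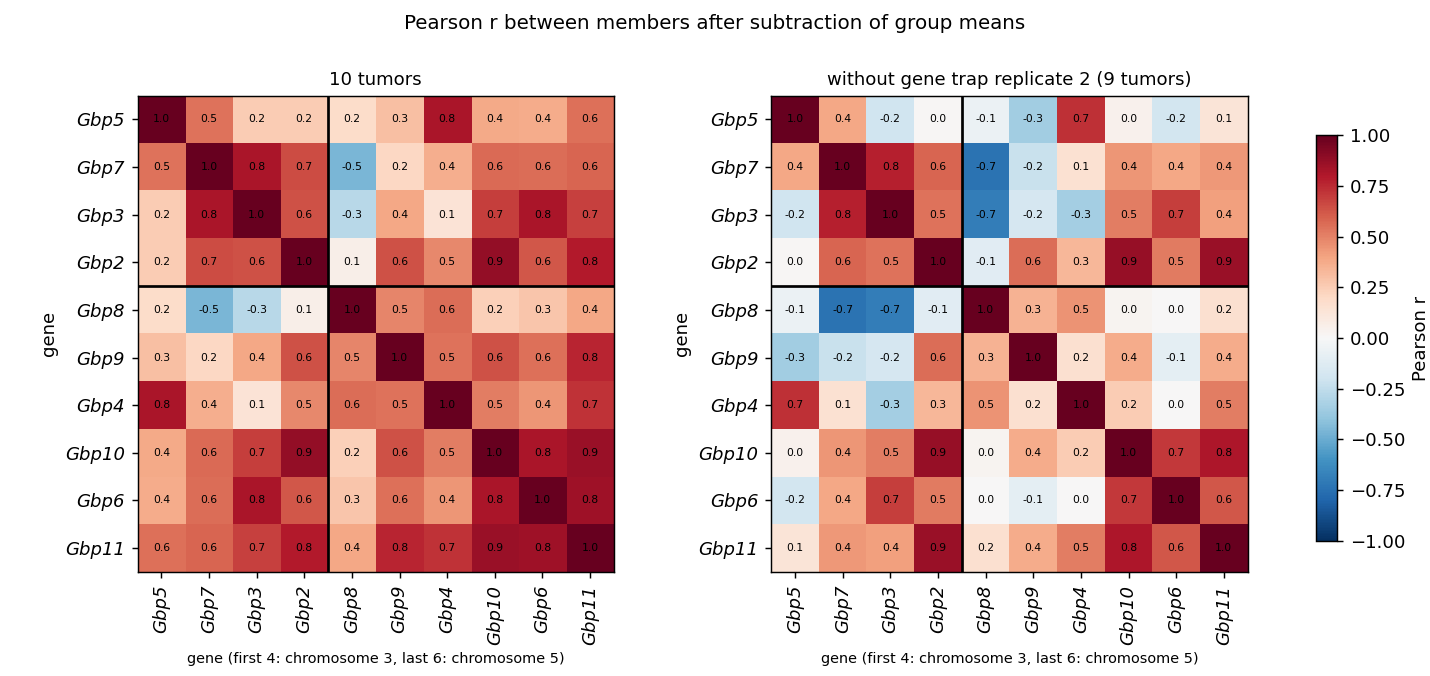
Pearson r between members over tumors after subtraction of each genotype's mean, for all 10 tumors (left) and without gene trap replicate 2 (right), with the black lines between the chromosome 3 and chromosome 5 genes. Red is positive and blue negative; the median of 45 pairs is 0.55 on the left and 0.35 on the right, and *Gbp8* has the lowest value of both panels against *Gbp7* (-0.46 and -0.74).

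Outside the family, the genes most like the mean z score of the members over the 10 tumors, after subtraction of group means, were *Gm4939* (r = 0.97, rho = 0.90), *Wwp1*, which encodes a ubiquitin ligase (r = 0.96, rho = 0.95), *Gm18609* (r = 0.95, rho = 0.79), *CT010433.1* (r = 0.94, rho = 0.93) and *Rps13-ps2* (r = 0.94, rho = 0.92). Without the 2 tumors farthest from the median, which were gene trap replicates 1 and 2, these correlations were 0.88, 0.86, 0.82, 0.86 and 0.85. They were taken as the highest of all tested genes, so their size is what selected them. None of the 5 is on the interferon lists, which hold only chosen genes, so this does not show whether they respond to interferon.

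Other genes of the interferon system were read from lists written with earlier results of these data known. Of the 131 list genes tested, 4 had an unadjusted p under 0.05 in limma, all lower in gene trap tumors, which is 3.05%, and none had an adjusted p under 0.05. They included *Tgtp1*, *Oas3* and the basal keratin *Krt17*. Over all tested genes, 1.32% were higher and 0.956% were lower in gene trap tumors at this unadjusted threshold. Of the 11 tested genes of interferon gamma signalling, 7 were lower, with a median log2 fold change of -0.08. *Irf1*, an interferon-induced transcription factor that acts on guanylate-binding protein promoters, was 2109 ± 248 in wildtype and 2110 ± 245 in gene trap tumors (SD, n = 5 each), with a log2 fold change of 0.00 (SE 0.10). The receptor-bound kinase *Jak1* differed by -0.15 (SE 0.07) and *Irf9*, a subunit of the ISRE-binding complex, by -0.08 (SE 0.10). *Ifng* itself has no row among the genes used.

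The classical targets of interferon gamma had a median near 0. Of 15 tested genes, 11 were lower, with a median log2 fold change of -0.02. When a tumor was left out, between 7 (without wildtype replicate 3 or gene trap replicate 3) and 13 (without wildtype replicate 5) were lower, with medians from -0.10 to 0.01. Among the antigen presentation genes, *Psmb8*, an immunoproteasome subunit, differed by -0.01 (SE 0.16), the peptide transporter subunit *Tap2* by 0.09 (SE 0.16), *Tapbp* by 0.05 (SE 0.13) and *B2m*, the light chain of MHC class I, by -0.19 (SE 0.11).

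The immunity-related GTPases, smaller interferon-induced GTPases that act on the same vacuoles, were lower for 7 of 7 genes, with a median of -0.33, and of -0.22 without gene trap replicate 2. These are differences of means, and by the group medians 4 of the 7 genes were lower in gene trap tumors and the other 3 were higher. Wildtype replicate 2 had the highest value of 5 of the 7 genes and wildtype replicate 3 of the other 2. The summed list had a median of 5205 in wildtype and 5555 in gene trap tumors. *Tgtp1* was 181 ± 68.0 in wildtype and 110 ± 31.8 in gene trap tumors (SD, n = 5 each), with a log2 fold change of -0.69 (SE 0.27), which was -0.51 without gene trap replicate 2 and -0.56 without wildtype replicate 2. Its unadjusted p was no longer under 0.05 without gene trap replicate 2, wildtype replicate 2 or wildtype replicate 3. *Iigp1*, *Igtp* and *Irgm2* differed by -0.40 (SE 0.27), -0.33 (SE 0.19) and -0.22 (SE 0.19). *Irgm1*, a regulator of the others, differed by -0.15 (SE 0.16).

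The genes of the type I interferon list, which encode antiviral effectors and sensors, were lower for 22 of 22 genes, with a median of -0.29. Wildtype replicate 2 stood high in this list, with the highest value of 21 of the 22 genes and a sum of 29573 against a wildtype median of 20400. Without it 20 of the 22 genes were lower, with a median of -0.14, and *Irf7* and *Isg15*, a ubiquitin-like protein named after its values were seen, were each higher by 0.07. Without gene trap replicate 3 the count was 21 (median -0.20), and it was 22 when any other tumor was left out, under quantile normalization and under scaling to equal totals. By the group medians 19 of the 22 genes were lower and 3 were higher. *Oas3*, which makes the activator of RNase L, was 153 ± 51.6 in wildtype and 104 ± 19.7 in gene trap tumors (SD, n = 5 each), with a log2 fold change of -0.51 (SE 0.21). This was -0.33 without wildtype replicate 2, and its unadjusted p was no longer under 0.05 without that tumor or without gene trap replicate 3, 4 or 5. The 4 most abundant genes differed less: *Irf7* by -0.12 (SE 0.25), the RNA sensors *Ddx58* by -0.15 (SE 0.10) and *Ifih1* by -0.13 (SE 0.09), and *Ifi44* by -0.19 (SE 0.16). 

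The genes that act with the family on vacuoles and downstream of it had medians close to 0. The proteins of the autophagy conjugation system that direct the GTPases to vacuoles had 5 of 9 genes lower and a median of -0.01, with *Gabarap* at 0.04 (SE 0.10), *Map1lc3b* at -0.13 (SE 0.07), *Gabarapl1* at 0.10 (SE 0.13) and *Atg16l1* at 0.00 (SE 0.10). When a tumor was left out, between 4 and 8 of these 9 genes were lower, with 8 and a median of -0.02 without gene trap replicate 2. The inflammasome and pyroptosis list had 5 of 8 lower and a median of -0.08. The adaptor *Pycard* differed by 0.09 (SE 0.16), the proteases *Casp1* and *Casp4* by -0.14 (SE 0.16) and -0.18 (SE 0.14), and *Gsdmd*, the pore-forming protein, by 0.02 (SE 0.14).

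**Figure D4:**
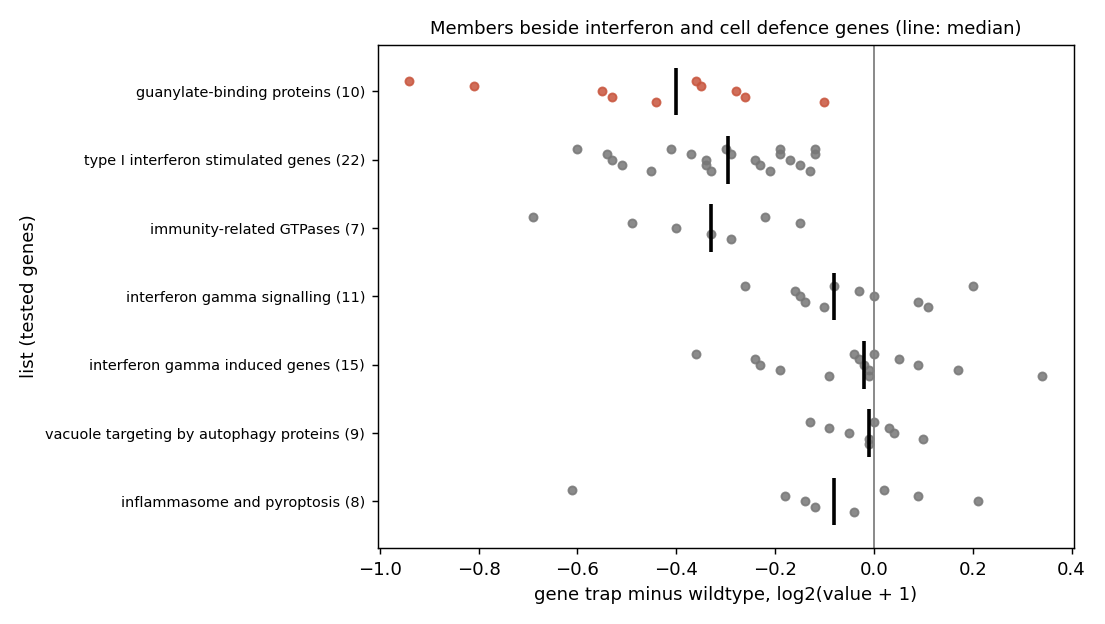
Gene trap minus wildtype difference of the mean log2(value + 1), 1 point for each tested gene, for the 10 members (red) and for 6 lists of the interferon and cell defence system (grey), with the median of each as a line. With all 10 tumors the members (median -0.40), the type I interferon list (-0.29) and the immunity-related GTPases (-0.33) lie wholly below 0 (20 of the 22 type I genes without wildtype replicate 2), and the other lists spread over both sides of it.

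Over the 10 tumors, after subtraction of group means, the mean z score of the members correlated with that of the immunity-related GTPases (r = 0.77, rho = 0.65, and r = 0.62 without gene trap replicates 1 and 2) and of interferon gamma signalling (r = 0.60, rho = 0.54, and r = 0.50). For the type I interferon list the values were r = 0.43, rho = 0.43 and r = 0.27, and for the interferon gamma induced list they were r = 0.13, rho = 0.08 and r = 0.58. For *Irf1*, taken as a single gene after its values were seen, they were r = -0.21, rho = -0.18 and r = 0.40.

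Markers of other cells in the tumor were read beside the family, since many of them express these genes, and their part in the differences was not tested. Macrophage markers, of which 8 of 8 were tested and 6 were lower, summed to between 9732 and 15172 in wildtype and between 10301 and 14317 in gene trap tumors. T cell markers, 8 of 9 tested and 7 lower, summed to between 173 and 438 and between 161 and 660. These counts depended on single tumors. When a tumor was left out, between 3 and 8 macrophage markers and between 4 and 8 T cell markers were lower. The medians then lay between -0.13 and 0.02 and between -0.53 and 0.02. Gene trap replicate 3 had the highest T cell sum (660). NK and cytotoxic markers, 6 of 7 tested and 1 lower, summed to between 130 and 199 and between 104 and 178. Endothelial markers, 6 of 6 tested and all lower, had a median of -0.11 that became 0.01 without gene trap replicate 2, and summed to between 2633 and 4613 and between 2337 and 4373. Dendritic cell markers were lower for 1 of 6 (1 to 3 when a tumor was left out) and fibroblast markers for 0 of 5 (0 to 3). Neutrophil markers were lower for 1 of 4 (1 to 3 when a tumor was left out), with sums from 316 to 984 and from 348 to 2084. The highest sum was that of gene trap replicate 2, the tumor that was lowest for 9 members, and came mostly from *S100a8* (1962). In that tumor *S100a9*, *Csf3r* and *Cxcr2* were 49.1, 60.3 and 13.2. All of these were highest in gene trap replicate 3 (565, 177.5 and 80.7). The B cell, adipocyte and skeletal muscle lists were measured only in part, with 1 of 4, 2 of 5 and 3 of 4 markers tested. Basal epithelial markers were lower for 4 of 4, with a median of -0.31 and sums from 4337 to 5192 and from 3248 to 5048. The values used hold no 0 for any gene, so a value above 0 does not show that a cell type was present. The lowest defining markers were *Cd3d* (7.44 in wildtype and 9.71 in gene trap tumors) and *Ncr1* (7.51 and 9.48). The mean z score of the T cell list had r = 0.03 and rho = -0.05 with the family, that of the macrophage list r = 0.23 and rho = 0.37, and that of the endothelial list r = 0.53 and rho = 0.38. Without gene trap replicates 1 and 2 the 3 values of r were -0.18, 0.55 and -0.12.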

How the data were processed

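Total RNA from primary mammary tumors was sequenced from stranded libraries. The authors deposited estimated counts per gene as a normalized signal, scaled between tumors by median ratio, and the submitters' processing notes name Partek, STAR (version 2.7.8a), DESeq2 and mm39. Each tumor's median ratio to the geometric mean of all used tumors was between 1.005 and 1.006, and whole reads and depth were not recovered. The labels describe 16 tumors. Of the 16 columns, 10 were matched to tumors by name and 6 were not used.

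Values were converted to log2 with a pseudocount of 1, and limma (version 3.58.1, R 4.3.3) was applied to genes with a mean of at least 10, with the mean-variance trend and Benjamini-Hochberg adjustment. The fit was tested on simulated data. Members and lists were chosen with earlier results of these data known. Genes named are the members, *Resf1*, list genes with an unadjusted p under 0.05 or groups that do not overlap, up to 4 genes of highest mean from each signalling or target list, and the 5 genes most like the members. One gene that the rule covers is not reported here. *Ifng*, marker genes and *Irf1* as a single correlate were chosen after their values were seen. Transcripts, gene order and shared 100-base windows came from GENCODE M21, and promoters from RefSeq GRCm38.p6. Since both differ from the build of the table, no other coordinates are given. P-values set the difference between genotypes against the spread between these tumors, which limma moderates over all fitted genes. Alternatives were a block for the replicate number, leaving out each tumor, other pseudocounts, filters and scalings, no variance trend and, after seeing the data, members with little shared sequence and list counts without each tumor.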

Additional observations from a re-analysis of the deposited data

Results flagged for a closer look

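In groups of 5, a tumor was taken as far from the others when its gap to the nearest was above 0.71 of the range. Of 58 groups checked, 9 met this, where chance gives about 2.9. For the members these were wildtype replicate 1 for *Gbp3* (713, the others from 978 to 1064) and wildtype replicate 3 for *Gbp10* (155, the others from 81.1 to 90.5). The summed markers gave gene trap replicate 3 for T cells (660, the others from 161 to 217) and B cells (168, from 4.24 to 13.9), gene trap replicate 4 for NK and cytotoxic cells (104, from 157 to 178), and wildtype replicate 1 for B cells (57.9, from 4.45 to 17.1). They also gave gene trap replicate 1 for fibroblasts (57154, from 26317 to 33657), gene trap replicate 5 for basal epithelium (5048, from 3248 to 3509) and wildtype replicate 5 for skeletal muscle (8453, from 532 to 2537).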

How the results depend on the processing

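Under 18 alternatives, 0 members had a higher mean in gene trap tumors and 0 genes had an adjusted p under 0.05 in limma, while the number with an unadjusted p under 0.05 was 479 and lay between 305 and 692 under the alternatives. All 177 log2 fold changes of single members under these alternatives were below 0. The replicate block, the filters and the fit without a variance trend cannot alter a fold change here, so many of these values are repeats. They come from the contrast that proposed the members and are not a test of them. The number of members whose groups did not overlap was 1, between 1 and 3 when a tumor was left out (2 without wildtype replicate 1, with *Gbp2*, and 3 without gene trap replicate 1, with *Gbp2* and *Gbp11*), and 0 with equal totals. Among the 8 members with under 10 percent of shared windows, an alternative chosen after seeing the data, it was 0, since that leaves out *Gbp10*. That group of 8 rests on windows of 100 bases. The number of list genes with an unadjusted p under 0.05 was 4, and between 3 and 12 when a tumor was left out, with 12 without wildtype replicate 1, 7 without gene trap replicate 4 and 8 without gene trap replicate 5. The median correlation between members was 0.55, between 0.35 and 0.61 when a tumor was left out, and 0.68 with equal totals. With the replicate number as a block the count of list genes was 2. The numbers mark different animals, and the deviations of same-numbered tumors had correlations from -0.156 to 0.149, so they do not pair the tumors. The alternative on protein identity was not run, because protein sequences were not used here. Depth is unknown, so counting error cannot be given.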

Other observations

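*Gbp2b*, a chromosome 3 gene of the same family that is not one of the 10 members, was named after its values were seen. Its wildtype values were 25.3, 24.0, 80.7, 39.8 and 48.6, and its gene trap values were 30.6, 15.1, 30.01, 28.2 and 18.7. The log2 fold change was -0.72 (SE 0.34), the groups overlapped, and wildtype replicate 3 was highest and gene trap replicate 2 lowest.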
